A study of Homo sapiens with 19 samples.

Results

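The genes described here are those of mitosis and of the G2/M transition, the step by which a cell that has copied its DNA enters division. They are 50 named genes, among them those of the cyclin-CDK engine, the mitotic kinases, the spindle checkpoint and the kinetochore. The list also holds mitotic motors and spindle proteins, genes of cytokinesis and 2 transcription factors. The genes were listed by symbol for their known roles, with earlier results of these data known. A probe was matched to 49 of the 50 through its RefSeq transcript, all 49 of them well above background on all 19 arrays, and these are 49 of the 16694 genes tested. UBE2C was not matched.

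The samples were KhES-3 cells, a human embryonic stem cell line, harvested during the earliest phase of differentiation towards brown adipocytes. A single culture was harvested at each of 19 times from 3 to 72 h after induction, 1 or 2 h apart until 16 h, 4 h apart until 36 h and 6 h apart from then on, and its total RNA was hybridized to a one-colour Agilent array. All samples received the same serum-free BA differentiation medium in a low-attachment dish, with BMP4, VEGFA, KITLG, FLT3LG, IL-6 and IGF-II, and there was neither an uninduced sample nor a control treatment, so that each comparison is between time points. The labels say that the cells had grown on irradiated mouse embryonic fibroblasts before induction, whereas the study's methods describe a culture without feeder cells, and which of these holds for these samples was not tested.

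Each time point has 1 array, without replicates. The error of a trend is therefore the scatter of the arrays around it, and the spread between cultures is not known. Arrays from 3 to 12 h lay on the first slide (6 arrays), those from 14 to 42 h on the second (8 arrays) and those from 48 to 72 h on the third (5 arrays). The last of these slides was read by the scanner 1 day after the others, so that time and slide overlap. Between 49.5% (14 h) and 64.7% (54 h) of probes were well above background, with 53.8% at 72 h. All 7 matched pluripotency markers, POU5F1, SOX2 and NANOG among them, were well above background on every array, and their summed signal was between 526626 (72 h) and 744554 (8 h). Of 10 fibroblast markers, COL1A1, COL1A2, THY1 and S100A4 were well above background on all arrays and COL3A1, LUM, POSTN and FBN1 on at most 4. The summed signal of the fibroblast markers tested was between 29838 (36 h) and 52003 (72 h). Most of that difference was THY1 (12967 at 36 h and 34993 at 72 h). COL1A2 and S100A4 were also higher at 72 than at 36 h, whereas COL1A1, PDGFRB and DCN were lower. The part of these signals in the results below was not tested.

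Entry into mitosis is driven by CDK1 bound to cyclin A or B and is reinforced by the Polo and Aurora kinases. The chromosomes are then attached to the spindle through kinetochores, the checkpoint holds back anaphase until every kinetochore is attached, and CDC20 with the anaphase-promoting complex starts the separation of the chromatids. Most of these genes are transcribed late in the cycle and are silenced in resting cells, under the DREAM complex and, in cycling cells, MYBL2 and FOXM1. Embryonic stem cells divide quickly and hold these mRNAs at high levels. In a bulk sample, fewer dividing cells and less mRNA per cell cannot be told apart.

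The promoters of such genes often hold the letters CCAAT, bound by NF-Y, and the element called CHR, TTTGAA. The RefSeq table of promoters (GRCh38.p14, from 250 bases before to 50 bases after a start site) held 52 start sites for 42 of the 49 genes. On either strand, CCAAT was found in 39 of the 52 (75%) and in 34.6% of all 35116 promoters, and TTTGAA in 31 of the 52 (59.6%) and in 15.2% of all. Both were found in 26 of the 52 (50%) and in 5.9% of all promoters. The fuller element GGCGGNNNNTTTGAA was found in 3 of the 52, belonging to CDC25C and NUF2, and in 0.0513% of all. The 130 bases before the start site follow for 4 genes that fell with time (CCNB1, CCNB2, KIF11 and ESPL1) and for 3 that were not called (PLK1, CENPA and PRC1), to show the 2 elements side by side. They are written 5′ to 3′ in the direction of the gene, in lower case, with CCAAT and TTTGAA or their reverse complements, ATTGG for the former and TTCAAA for the latter, in capitals.
CCNB1, chr5:69167020-69167149, plus strand: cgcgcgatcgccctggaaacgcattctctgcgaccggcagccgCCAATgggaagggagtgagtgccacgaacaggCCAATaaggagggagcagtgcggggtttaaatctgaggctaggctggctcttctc
CCNB2, chr15:59105016-59105145, plus strand: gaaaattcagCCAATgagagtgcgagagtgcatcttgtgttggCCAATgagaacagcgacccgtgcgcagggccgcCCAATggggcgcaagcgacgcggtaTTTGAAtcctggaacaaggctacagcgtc
KIF11, chr10:92593000-92593129, plus strand: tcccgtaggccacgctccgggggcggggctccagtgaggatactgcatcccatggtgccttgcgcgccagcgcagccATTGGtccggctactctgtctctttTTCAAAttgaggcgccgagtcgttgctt
ESPL1, chr12:53268169-53268298, plus strand: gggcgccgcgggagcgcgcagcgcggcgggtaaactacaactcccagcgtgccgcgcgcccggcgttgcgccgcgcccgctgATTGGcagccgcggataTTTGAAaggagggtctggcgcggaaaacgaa
PLK1, chr16:23678759-23678888, plus strand: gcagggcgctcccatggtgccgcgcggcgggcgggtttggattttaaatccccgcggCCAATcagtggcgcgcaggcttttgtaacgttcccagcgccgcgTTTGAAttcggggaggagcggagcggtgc
CENPA, chr2:26785926-26786055, plus strand: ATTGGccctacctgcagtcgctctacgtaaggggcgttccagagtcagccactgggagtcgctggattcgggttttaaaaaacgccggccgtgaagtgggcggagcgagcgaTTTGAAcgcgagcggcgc
PRC1, chr15:90994536-90994665, minus strand: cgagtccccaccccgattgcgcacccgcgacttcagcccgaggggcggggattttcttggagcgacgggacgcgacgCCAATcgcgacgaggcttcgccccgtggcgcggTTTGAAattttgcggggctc

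CCNB2 held CCAAT at 120, 87 and 54 bases before its start and TTTGAA at 29, counted to the first letter. KIF11 held them at 53 and 28 bases, ESPL1 at 48 and 31, PLK1 at 73 and 29, and PRC1 at 53 and 20, whereas CCNB1 held CCAAT at 87 and 55 and no TTTGAA in this stretch. In the whole window, CCAAT was found for 24 of the 28 genes that fell and have a promoter in the table and for 10 of the 14 that were not called, and TTTGAA for 19 of 28 and 9 of 14. A match is a description of the letters and not a binding site, and the elements were present in promoters of both kinds of gene.

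Signals are the scanner's processed intensities, scaled so that the 75th percentile of every array is 922, and levels of different genes cannot be compared because each probe hybridizes with its own strength. As a whole the mitosis and G2/M genes were level or slightly higher until 36 h and lower from 42 h to the end of the series. On the log2 scale, the median of the 49 genes, each relative to its own mean, was -0.02 at 3 h and had reached 0.19 by 12 h, 0.31 by 28 h and 0.24 by 36 h. It was then -0.11 at 42 h and, over the last 3 time points, -0.24, -0.40 and -0.77. The median of all genes stayed between -0.03 and 0.06 on the 19 arrays.

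**Figure D1:**
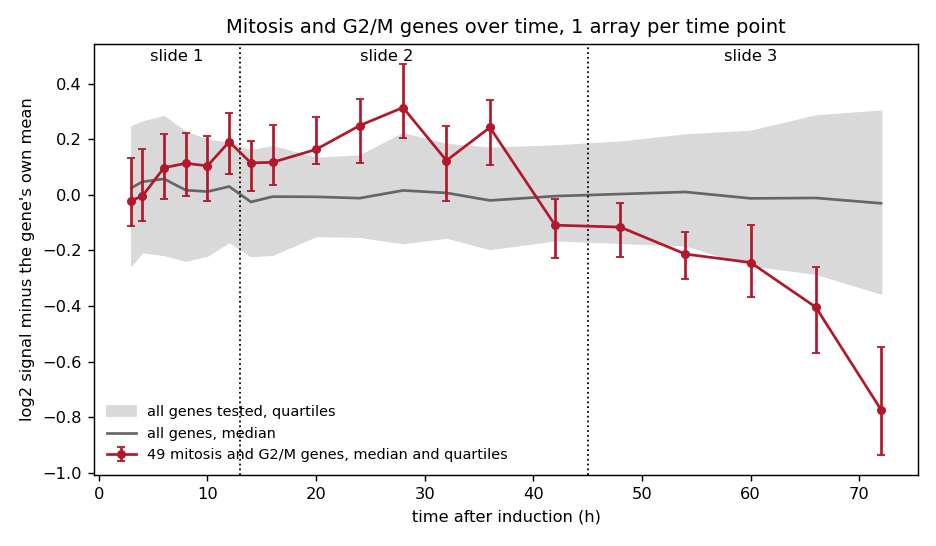
Median of the 49 mitosis and G2/M genes (red; bars span the quartiles) and of all genes tested (grey line; band, quartiles) at each time point in hours, as log2 signal minus each gene's own mean; dotted lines divide the 3 slides and each point is 1 array. The red median peaks at 0.31 at 28 h, passes below 0 at 42 h and ends at -0.77.

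The signal was highest on slide 1 for 12 of the 49 genes, on slide 2 for 37, and for 21 of these it was highest at 28 h. It was lowest at 72 h for 44 of the 49, and the exceptions were CDC25B (14 h), CENPE (48 h), SGO1 (54 h), SPC25 (60 h) and CDC25C (66 h). From 3 to 28 h, 42 of the 49 genes were higher, with a median difference of 0.32 against -0.01 for all genes. From 28 to 72 h all 49 were lower, with a median difference of -1.07 against -0.06 for all genes. The 28 h and 72 h arrays were picked out for their values, so that these differences are descriptions. On the 72 h array the spike-in RNA, a set of synthetic controls on Agilent arrays, stood 4.75 log2 units above the 75th percentile, and on the 66 h array 4.74, against 3.54 to 4.37 on the other arrays.

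Between 36 and 42 h, both on the second slide, 44 of the 49 genes were lower, with a median step of -0.34, while 47.5% of all genes were lower with a median step of 0.02. RACGAP1 (-0.73), NUF2 (-0.69), CDK1 (-0.68) and AURKB (-0.67) made the largest steps. ASPM (0.31), SGO1 (0.17), SPC25 (0.13), FOXM1 (0.02) and MYBL2 (0.01) were the 5 that were not lower. The other large steps were from 28 to 32 h, with 41 genes lower and a median of -0.24, and from 66 to 72 h, with 48 lower and a median of -0.35. The 32 h array also had a higher spike-in level (4.37) than the others of its slide (3.54 to 3.98). The difference between 36 and 42 h is between 2 single cultures.

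A straight line in hours was fitted to the 19 arrays for every gene (limma), and a gene was said to fall or rise when the adjusted p was under 0.05. Among the 49 genes 34 fell and 0 rose, beside 30.2% of all 16694 genes that fell and 25% that rose. The slope was below 0 for 48 of the 49, the exception being CDC25B. Without adjustment, too, none of the 49 had a rising slope with p under 0.05. A cubic curve in hours, which can also follow a rise and then a fall, passed the test for 47 of the 49, beside 80.6% of all genes. CDK1 (adjusted p = 0.31) and CDC25B (adjusted p = 0.23) were the 2 that did not pass. The means of the last 3 time points (60, 66 and 72 h) and of the first 3 (3, 4 and 6 h) differed by a median of -0.46 on the log2 scale, against -0.05 for all genes, and the largest and smallest of the 49 differences were -1.23 (SPC25) and 0.02 (SGO1). At least a 2-fold lower late mean was reached by 4 of the 49 (8.16%), and by 5.86% of all genes.

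With the slide as a block, 9 of the 49 genes fell and 0 rose (7.09% of all genes fell and 4.76% rose), and the slope stayed below 0 for 45 of the 49. The 9 were SPC24, SPC25, KIF11, AURKB, KIF14, KIF23, ESPL1, FOXM1 and ASPM. Without the 72 h array 24 of the 49 fell, beside 28.8% of all genes, and over 3 to 54 h 19 fell, beside 28.2%.

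**Figure D2:**
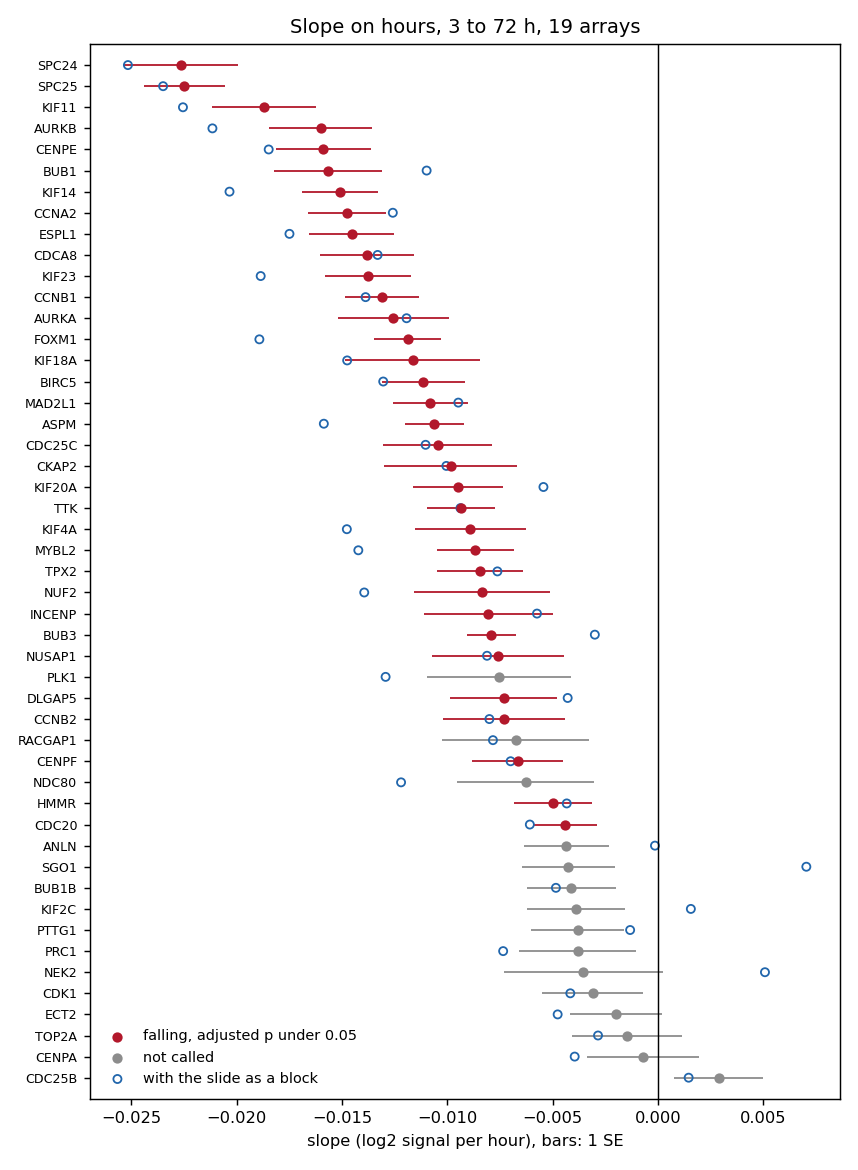
Slope of log2 signal per hour for each of the 49 genes over 19 arrays (filled points; bars are 1 SE; red, falling with adjusted p under 0.05; grey, not called) and the slope with the slide as a block (open blue circles). SPC24, SPC25 and KIF11 have the steepest slopes and CDC25B the one slope above 0.

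Within the first slide (3 to 12 h) the slope was above 0 for 37 of the 49 genes, with a median of 0.017 log2 units per hour against -0.00099 for all genes. There, 4 of the 49 rose (AURKA, SGO1, CDC25C and SPC24; 3.65% of all genes rose) and CDC25B fell (5.74% of all fell), but scaling to the array median or to the spike-in RNA left 0 of the 49 rising. At an unadjusted p under 0.05, 15 of the 49 rose and 2 fell within this slide, beside 12.7% and 16% of all genes. Within the second slide (14 to 42 h) 5 fell, SPC25, CENPE, SPC24, KIF14 and FOXM1, and 0 rose, beside 5.03% and 6.06% of all genes. Unadjusted (p under 0.05), 9 fell and 0 rose there, beside 14.5% and 16% of all genes. Within the third slide (48 to 72 h) 46 of 49 slopes were below 0, with a median of -0.028 against -0.00093 for all genes. There, 15 genes fell and 0 rose, beside 4.61% and 2.41% of all. Without adjustment (p under 0.05) 29 fell and again 0 rose, beside 18.1% and 13.2% of all genes. KIF11, KIF18A, NDC80, PLK1 and KIF23 had the steepest of the 15 slopes. Of these 15, PLK1, NDC80, ECT2 and BUB1B did not pass the test over all 19 arrays. The count of 15 rests on the background filter, because without it 0 of the 49 fell within this slide.

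In the values by role that follow, early and late means are geometric means of the signals at 3, 4 and 6 h and at 60, 66 and 72 h. The amount by which a gene fell or rose is the difference of these means on the log2 scale, and the adjusted p is that of its slope over the 19 arrays. The cyclin-CDK engine comprised 6 genes, of which 4 fell. CCNB1, cyclin B1, the partner of CDK1 in mitosis, had a signal between 11707 (72 h) and 28063 (6 h), with a median of 25086. Until 36 h no array had less than 24008, and the late mean of 14757 lay below the early mean of 25852 (slope -0.013 ± 0.0017 SE, adjusted p = 4e-06). With the slide as a block the adjusted p was 0.0505. CCNA2, cyclin A2, which acts from S phase into early mitosis, was highest at 3 h (4719) and lowest at 72 h (1729), with a median of 3780. It fell by 0.98 from the early to the late time points (adjusted p = 2.1e-06), a call lost when the slide was fitted as a block (adjusted p = 0.14). CDC25C, a phosphatase that activates CDK1, fell by 0.51 (adjusted p = 0.0021), and CCNB2, cyclin B2, by 0.41 (adjusted p = 0.038). The call of CCNB2 is lost when any 1 of 5 arrays (14, 54, 60, 66 or 72 h) is left out.

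CDK1 itself, the mitotic kinase, was not called. Its signal was between 3894 (72 h) and 7048 (28 h), with a median of 5221, and the early and late means were 5364 and 5086. The slope was -0.0031 ± 0.0024 (adjusted p = 0.28). A second, dimmer CDK1 probe gave a late minus early difference of 0.39 where the brighter one gave -0.08, so that the probes differed in sign. CDC25B, the phosphatase that acts at the centrosome at mitotic entry, was between 954 (14 h) and 1447 (28 h), with a median of 1357, and its slope was 0.0029 ± 0.0021 (adjusted p = 0.25). A slope that was not called does not make these genes level, but neither passed the cubic test for any change (adjusted p = 0.31 and 0.23). CDK1 was lower at 42 than at 36 h by 0.68, a step between single arrays. CDC25B fell within the first slide, a call that was not kept with spike-in scaling. The difference of their slopes from those of the cyclins was not tested.

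Of the kinases of mitotic entry and the centrosome, AURKA fell. Aurora A, which matures the centrosome, was between 2658 (72 h) and 7167 (24 h), with a median of 6059, and early and late means of 5539 and 3521 (adjusted p = 0.00049). PLK1, the Polo kinase, had an early mean of 3571, was highest at 28 h (6023) and was lowest at 72 h (1993), with a median of 3661 (adjusted p = 0.069). NEK2, which separates the centrosomes, was likewise highest at 28 h (947) and lowest at 72 h (277), with a median of 521 and near-equal early and late means of 481 and 447 (adjusted p = 0.44). These 3 genes had the largest median difference between 3 and 28 h of any group of 2 or more genes, 0.80.

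Of the 5 genes of the spindle checkpoint 4 fell, BUB1, MAD2L1, TTK and BUB3. BUB1, a kinase that recruits the checkpoint to the kinetochore, was between 2782 (72 h) and 8717 (28 h), with a median of 6469. The early and late means were 7408 and 3553, and each of the 3 late arrays lay below each of the 3 early ones (difference -1.06, adjusted p = 4e-05). MAD2L1, the inhibitor of CDC20, differed by -0.74, TTK, the MPS1 kinase, by -0.46 and BUB3 by -0.39. BUB1B, which encodes BUBR1, differed by -0.31 and was not called (adjusted p = 0.10).

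Anaphase onset was represented by 4 measured genes, of which 2 fell. ESPL1, separase, the protease that cleaves cohesin, was between 2564 (72 h) and 5889 (4 h), with a median of 5564, and its early and late means were 5793 and 2923 (difference -0.99, adjusted p = 6e-06; with the slide as a block, 0.023). CDC20, the activator of the anaphase-promoting complex, was between 4810 (72 h) and 8055 (24 h), with a median of 7018, and fell by 0.30 (adjusted p = 0.02), a call that is lost without the 72 h array (adjusted p = 0.19). PTTG1, securin, the inhibitor of separase, was not called (-0.21, adjusted p = 0.15), and it has near-identical copies, PTTG2 and PTTG3P, whose transcripts may reach its probe. SGO1, shugoshin, which protects cohesin at the centromere, had a signal between 826 (54 h) and 1475 (12 h), with a median of 1185, and a late minus early difference of 0.02 (adjusted p = 0.11). A second, dimmer SGO1 probe, which carries another transcript's accession, gave -1.95, and of the 11 genes with a second detected probe this was the largest disagreement.

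The centromere and kinetochore held the steepest slopes of the list. SPC25 and SPC24 are partners in the NDC80 complex, which binds microtubules. SPC25 was between 2492 (60 h) and 6710 (16 h), with a median of 4516, and was 6257 and 2663 in the early and late means (difference -1.23, slope -0.022 ± 0.0019, adjusted p = 1.9e-08). It was already at 3315 by 32 h, when the median of the 49 genes was still above 0, and had a slope of -0.00043 within the third slide (adjusted p = 0.97). SPC24 was between 81.1 (72 h) and 307 (12 h), with a median of 209, and fell by 1.15 (adjusted p = 1e-06). Both fell with the slide as a block, too (adjusted p = 0.013 and 0.023).

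NDC80 and NUF2, the remaining subunits of the same complex, were both highest at 28 h, at 19724 and 2035, and lowest at 72 h, at 6865 and 644. NUF2 fell by 0.44 (adjusted p = 0.034), a call lost without the 66 h or the 72 h array, while NDC80, with -0.38, was not called (adjusted p = 0.11). CENPE, a kinetochore motor, fell by 0.79 and was lowest at 48 h, and CENPF by 0.38, the latter a call lost without the 72 h array (adjusted p = 0.14). A second, dimmer CENPF probe gave a late minus early difference of -0.03 and no call (adjusted p of its slope = 0.90). CENPA, the histone that marks the centromere, was between 1029 (72 h) and 2164 (28 h), with a median of 1564, and early and late means of 1423 and 1368 (adjusted p = 0.84).

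All 4 genes of the chromosomal passenger complex, which corrects faulty attachments and directs cytokinesis, fell. AURKB, its kinase, was between 1015 (72 h) and 2978 (28 h), with a median of 2527, and early and late means of 2555 and 1323 (difference -0.95, adjusted p = 2e-05; with the slide as a block, 0.037). BIRC5, survivin, was between 23122 (72 h) and 49485 (10 h), with a median of 43425, and fell by 0.65 (adjusted p = 0.0001). CDCA8, borealin, fell by 0.78. INCENP, the scaffold, peaked at 32 h (3884) and fell by 0.22 (adjusted p = 0.032), a call that is lost when any 1 of 5 arrays (12, 48, 54, 66 or 72 h) is left out.

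Of the 7 mitotic kinesins 6 fell. KIF11, the motor that pushes the spindle poles apart, was between 2141 (72 h) and 7083 (28 h), with a median of 5747. Its early mean was 5829 and its late mean 2641 (difference -1.14, slope -0.019 ± 0.0025, adjusted p = 3.5e-06), and its slope was below 0 with the slide as a block (adjusted p = 0.017) and within the third slide (adjusted p = 0.032). KIF23, a motor of the central spindle, fell by 0.86, KIF14 by 0.80, KIF18A by 0.61, KIF20A by 0.60 and KIF4A by 0.56. Without the 72 h array KIF4A was not called (adjusted p = 0.074). KIF2C, a depolymerizing kinesin, was not called (-0.17, adjusted p = 0.16).

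All 6 spindle-associated genes fell. TPX2, which activates Aurora A on the spindle, was between 5533 (72 h) and 12420 (28 h), with a median of 9840, and fell by 0.45 (adjusted p = 0.0017). ASPM, a protein of the spindle poles, fell by 0.63 and kept its call with the slide as a block (adjusted p = 0.013), although it was higher at 42 than at 36 h. CKAP2 fell by 0.55, DLGAP5 by 0.39, NUSAP1 by 0.36 and HMMR by 0.32, and these 4 calls were lost without the 72 h array (adjusted p = 0.11 to 0.27), that of DLGAP5 also without the 66 h array and that of NUSAP1 when any 1 of 10 arrays was left out. A dimmer CKAP2 probe gave a difference of 0.31, opposite in sign.

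None of the 4 genes of cytokinesis was called over the 19 arrays. PRC1, which bundles the microtubules of the central spindle, differed by -0.17, RACGAP1 by -0.19, ECT2 by -0.25 and ANLN by -0.25 (adjusted p = 0.074 to 0.46). All 4 passed the test for any change, as did 80.6% of all genes. PRC1 was at 15619 at 28 h, against an early mean of 9231 and a late mean of 8192. TOP2A, the topoisomerase that untangles chromatids, was between 2442 (72 h) and 5315 (36 h), with a median of 3763 and early and late means of 3677 and 3207 (adjusted p = 0.66). Under scaling to the array median these 5 genes fell too, beside 47.1% of all genes. Their lack of a call therefore holds for the 75th percentile.

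Both transcription factors fell. FOXM1, which drives late cell cycle genes, was between 3004 (72 h) and 6659 (16 h), with a median of 5636, and fell by 0.71 (adjusted p = 4.3e-06; with the slide as a block, 0.0045). MYBL2 was between 2282 (72 h) and 4762 (12 h), with a median of 4308, and fell by 0.59 (adjusted p = 0.00052). The early and late means were 6007 and 3661 for FOXM1 and 4388 and 2910 for MYBL2. Neither was lower at 42 than at 36 h, when most of the 49 genes were.

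**Figure D3:**
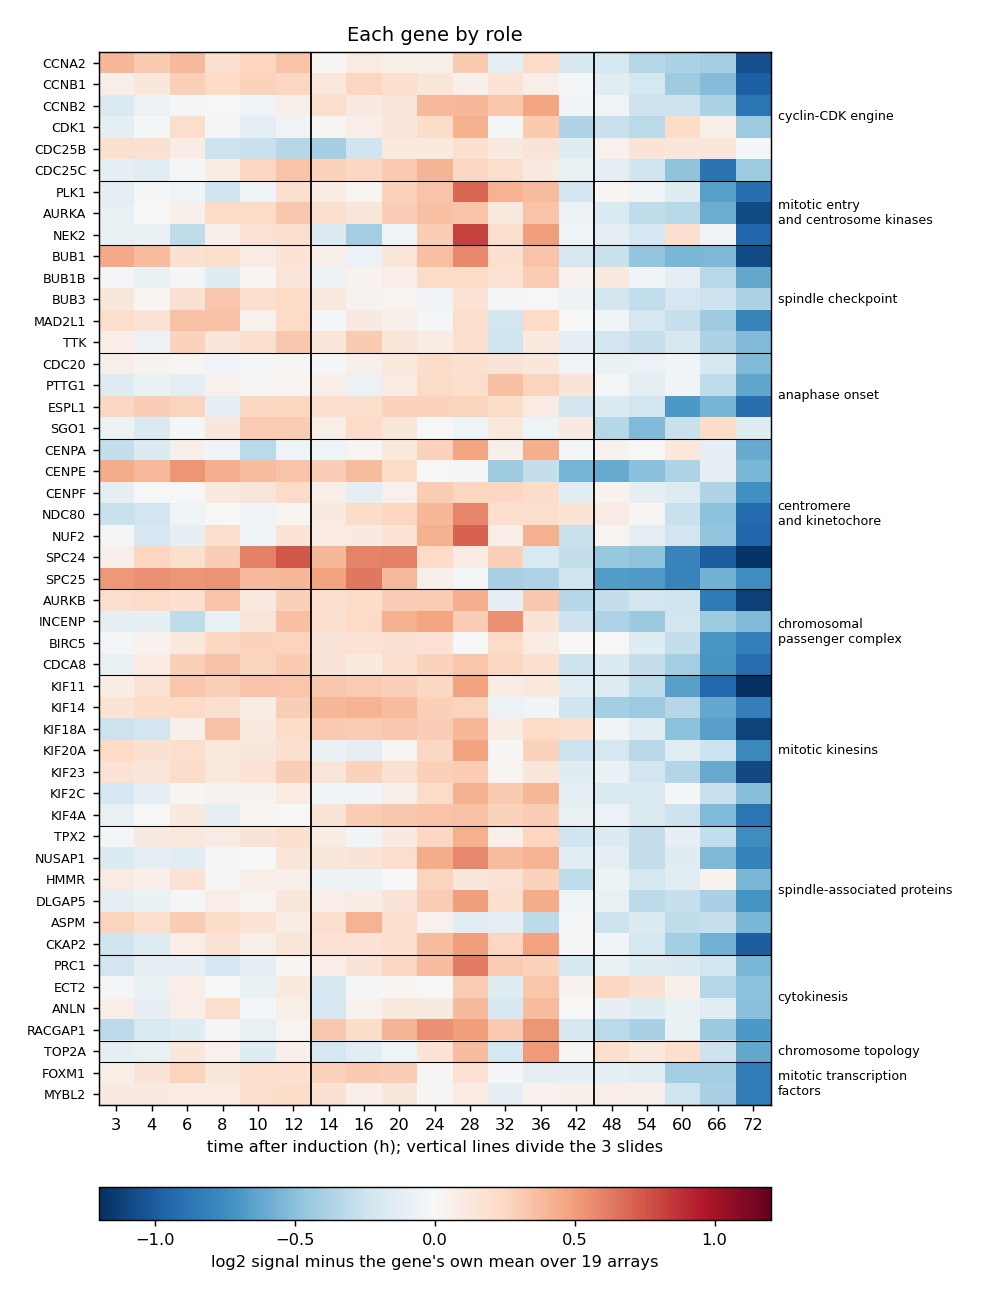
Log2 signal of each of the 49 genes minus its own mean over the 19 arrays, in rows by role, against time in hours (columns, 1 array each; vertical lines divide the slides; red above and blue below the mean). The 72 h column is below 0 in every row, least so for CDC25B and SGO1, the 28 h column is red for most rows, and SPC25 and CENPE are already blue at 32 h, when most other rows are red.

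The 49 genes moved together in part. Over the 19 arrays, which share slides and time, the correlation of a gene with the mean of the other members had a median of 0.85 and was above 0.8 for 34 of the 49, and 5.22% of all genes had a correlation above 0.8 with the mean of the members. After the mean of each slide was removed the median was 0.76 and 23 of the 49 were above 0.8, against 1.27% of all genes. AURKA (0.98), KIF23 (0.97), CDCA8 (0.96) and KIF11 (0.96) followed the mean most closely. CDC25B (-0.15), SGO1 (0.34) and CENPE (0.52) followed it least. SPC25, with 0.63 over all arrays, had 0.03 once slide means were removed.

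Other genes of cell division were read from 6 lists, which hold 133 further tested genes. Of these 80 fell (60.2%) and 7 rose, beside 30.2% and 25% of all genes, and their median late minus early difference was -0.44, against -0.05 for all genes. The counts of the single lists are to be read against the same shares. Among 49 other mitosis genes 32 fell and 1 rose, DEPDC1B (-1.37) and CDC25A (-1.39) having the steepest falls and ARPP19 the rise (0.18). CDC25A activates CDKs at the start of S phase. Among 26 other centromere and kinetochore genes 17 fell and 2 rose. CENPN, which reads the CENPA nucleosome, was 15008 in the early and 4724 in the late mean (difference -1.67, adjusted p = 3.5e-08) and CENPU fell by 1.15, while CENPP rose from 746 to 1997 (difference 1.42, adjusted p = 1.2e-10) and CENPC by 0.47.

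Among 16 condensin and cohesin genes 12 fell and 0 rose, with STAG1 (-1.28) and NCAPG (-1.16) the steepest. Among 16 subunits and regulators of the anaphase-promoting complex 9 fell and 1 rose: ANAPC15 fell by 0.99 and FBXO5, its inhibitor EMI1, by 0.71, and ANAPC16 rose by 0.23. Among 12 genes of the DREAM and RB complexes 6 fell and 1 rose. TFDP1, the partner of the E2F factors, fell by 1.11 and RBL1 (p107) by 0.49, and RBL2 (p130) rose by 0.30.

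Of 14 G2/M brakes 4 fell (28.6%) and 2 rose, which is near the 30.2% of all genes that fell and not above the 25% that rose. CDKN1A, the CDK inhibitor p21, was well above background on 16 of 19 arrays, with signals from 22.8 (16 h) to 430 (60 h). Its early and late means were 118 and 407 (difference 1.79, adjusted p = 0.0069; with the slide as a block, 0.02). CHEK2, a checkpoint kinase, rose by 0.38. PKMYT1, which inhibits CDK1, fell by 0.69 and RPRM by 0.61.

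Scaling moved every value on these arrays by a common amount. Scaled to the array median, the median difference of all genes between early and late time points was -0.45. There, 48 of the 49 genes fell, beside 47.1% of all genes. Scaled to the spike-in RNA the median difference was -0.70, and 44 fell, beside 46.7% of all genes. In the authors' deposited table it was 0.09, and 26 fell, beside 23.3%. Each of these scalings moves all genes of an array alike, but the deposited table lacks most values not well above background. The median of the 49 genes minus that of all genes was therefore bound to stay at -0.41 under the other scalings. In the deposited table it lay close to that. Normexp with quantile normalization is not such a common shift. With it the median difference was -0.37 for the 49 genes and -0.06 for all genes, and 27 of the 49 fell, beside 28% of all. The share of risers among all genes called was 45.3% with the 75th percentile. It was 17.9% after scaling to the array median and 8.05% after the spike-in RNA. In the deposited table as scaled again it was 57.4%, and with the 75th percentile over all probes 39.6%. None of the 49 genes rose with hours over the whole series under any setting tried.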

How the data were processed

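The authors deposited the Agilent Feature Extraction 10.10.1.1 output of 19 arrays, whose processed signal is an intensity with background subtracted, not scaled between arrays. They also deposited a table of intensities, found to be the processed signal times 1 factor per array and filled for at most 0.394% of the probes not well above background on an array. Flagged spots were left out, the spots of a probe were averaged as log2, and each array's 75th percentile over spots (655 to 1003) was subtracted. Of 50683 probes, 28174 were matched by RefSeq accession to 20503 symbols (GRCh38.p14), and the brightest probe stood for a gene. The filter kept the 16694 genes whose probe exceeded background, by the scanner's flag, on 5 arrays or more. Trends came from R 4.3.3 and its package limma 3.58.1 (lmFit and eBayes, with Benjamini-Hochberg adjustment over all 16694). The number of arrays limits the precision. Tables used Python 3.11.15, numpy 2.4.6 and pandas 2.3.3.

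On simulated data with 200 changed genes, the slope fit over 16694 genes recovered 173 among 183 calls. The simulated noise was independent between arrays and had no steps between slides, and the added slopes had fixed sizes. These counts are therefore not error rates of the calls made on the real arrays. Alternatives were the array median, spike-in RNA (7 of 10 levels), normexp (offset 50, median pixel intensity) followed by quantile normalization, no filter or a filter on all arrays, the deposited table, the mean of detected probes, the slide as a block, log2 hours, 3 to 54 h, 72 minus 3 h and each array left out. The deposited table was first scaled again, to the 75th percentile over the probes filled on all arrays. The 75th percentile over probes was added after seeing the data. The members, the lists and the genes to be named (15 measured landmark genes, the 5 largest falls and the 5 largest rises or smallest falls, and from each other list the 2 steepest called genes in each direction) were chosen with earlier results of these data known.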

Additional observations from a re-analysis of the deposited data

How the results depend on the processing

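The number of mitosis and G2/M genes falling with hours was 34. It was 9 with the slide as a block (7.09% of all genes fell), 21 on log2 hours (30.3%) and 19 from 3 to 54 h (28.2%). With each array left out it lay between 24 and 35, beside 28.8% to 30.5% of all genes. It was 26 to 48 under the other settings, beside 23.3% to 47.1% of all genes. Without the 72 h array, 10 of the 34 lost their call, and for 5 of them this was the only array to do so. None rose under any setting. Any change over time was called for 33 of 49 genes with the slide as a block, beside 6812 of all 16694 genes. From 3 to 54 h it was called for 38, beside 11530 of all. With each array left out it was 43 to 47, beside 12991 to 13431 of all. Otherwise it was 44 to 49, beside, for example, 12733 of all with normexp and quantile normalization and 14378 with spike-in scaling. From 3 to 54 h the slopes of CCNB2 (0.0014), NUF2 (0.00076), NUSAP1 (0.00058) and CKAP2 (0.00081) changed sign and none of them was called. The median late minus early difference was -0.86 with the array median, -1.11 with spike-in RNA and -0.75 for 72 minus 3 h, where it was -0.70 relative to all genes, and -0.59 to -0.34 with each array left out (-0.54 to -0.30 relative to all genes). Within slide 1, 0 genes fell with spike-in scaling, and 0 rose with the array median, 0 with spike-in and 1 without the background filter. Within slide 2, 0 fell with spike-in scaling. Within slide 3, 48 fell with spike-in scaling and 0 without the background filter. Of the other lists, 28 genes fell and 3 rose with the slide as a block, 2 rose with the array median, 2 with spike-in and 11 in the deposited table, and 72 to 81 fell and 6 to 9 rose with each array left out. Slide effects and time overlap in this design, and without replicates no trend can be set against the spread between cultures. No paired analysis was possible because there is a single array for every time point. The causes of these changes were not tested.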
